A study of Mus musculus with 16 samples.

Results

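The epidermal growth factor (EGF) family was followed in 16 mice through 10 genes chosen by symbol, of 22396 symbols in the deposited tables. They were 6 ligands (*Ereg*, *Areg*, *Hbegf*, *Tgfa*, *Btc* and *Epgn*), 3 receptors (*Egfr*, *Erbb2* and *Erbb3*) and *Errfi1*, which encodes a feedback inhibitor of the receptors. All 10 were present in both tables, as 11 listed transcripts. Bulk RNA was taken from EpCAM+ cells sorted from the distal colon. Of these mice, 4 controls (Tnfr2-f/f) and 5 animals labelled knockout (Vil1::Cre;Tnfr2-f/f) were given water. A further 3 controls and 4 animals labelled knockout were given dextran sulfate sodium (DSS), a polymer that injures the colonic epithelium, at 3% for 6 days by the labels. All were dissected at day 12 by the labels. The study's text differs from the labels in the DSS concentration and in the day given for uninjured mice. By the methods the mice were 8 weeks old. Every mouse carried the floxed *Tnfrsf1b* alleles (TNFR2), and the *Vil1* promoter restricts Cre to the intestinal epithelium. In the DSS-treated mice the injured regions had been dissected away from unaffected colon, by the methods. The water-treated males (2 controls, 2 labelled knockout) shared cage a and the females (2 and 3) shared cage b. The DSS-treated mice were all female, with control 3 and knockout 1 in cage c and the others in cage d. No cage held both treatments, so treatment and cage cannot be told apart.

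EGF-family ligands are made as membrane proteins and are released by metalloproteases such as ADAM17. Each carries an EGF domain that binds EGFR, and HB-EGF, betacellulin and epiregulin also bind ERBB4. ERBB2 has no known ligand of its own and signals as a partner, while ERBB3 has a weak kinase and depends on such a partner. In the intestine the family drives proliferation of crypt cells and repair, through the RAS-ERK and PI3K-AKT cascades. *Errfi1* (MIG6) is itself induced by the pathway and blocks the receptor kinases.

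Levels are the deposited TPM, a transcript abundance per length, so that genes can be compared. TPM are made on a fixed total, but each table had been scaled on its own. Median-of-ratios factors within a table were 0.982 to 1.05 after DSS and 1.00 to 1.03 in water. The listed sums need thus not reflect a fixed total. The files hold no read depth. The sum of the listed TPM ranged from 487469 to 861109 per mouse, and 10310 to 10961 genes reached 1 TPM. By the study's methods only part of *Tnfrsf1b* is flanked by loxP sites, so its TPM, summed over whole transcripts, need not show the deletion and do not check the labels. *Tnfrsf1b* ranged from 11.1 to 15.5 TPM in water controls and from 9.23 to 14.8 in those labelled knockout (exact permutation p = 0.183). After DSS it ranged from 13.3 to 22.2 and from 13.5 to 27.0 TPM (exact permutation p = 0.629). The 12 epithelial markers (*Epcam*, *Krt8*, *Cdh1* and others) averaged above 1 TPM in both treatments, with sums of 6853 to 9578 TPM in water and 6620 to 10828 after DSS. The sorted cells held RNA of other cell types, in different amounts by treatment. All 10 macrophage markers were lower in each DSS-treated mouse than in any water-treated mouse, with sums of 20.3 to 65.1 against 1191 to 2623 TPM. Sums of the 8 B and plasma cell markers were 8.44 to 465 TPM after DSS and 486 to 14375 in water. *Cd8a*, in the list of T and innate lymphoid cells, was at 0 in every DSS-treated mouse. Neutrophil markers summed to 60.6 to 2140 TPM after DSS and 84.7 to 242 in water, and fibroblast markers to 119 to 568 and 239 to 827. In bulk RNA, fewer cells of a type and less RNA per cell cannot be told apart. Control 3 among the DSS-treated mice stood apart in several members below. It had the lowest neutrophil sum (60.6 TPM) and the highest epithelial sum (10828 TPM) of the DSS-treated mice. It is 1 of only 3 DSS controls and was singled out by its values, so results without it are descriptions.

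*Epgn*, *Ereg*, *Areg* and *Btc* lie together on mouse chromosome 5, within 376 kb (GRCm38, chr5:91027464-91402994). The first 3 are on the plus strand and *Btc* is on the minus strand. Of the 10 members, 7 had an entry among RefSeq promoters of GRCm38.p6. The 250 bases before the start are shown for *Areg*, the ligand with the highest mean over each treatment's mice, and for both starts of *Errfi1*, the most abundant member outside the ligands. Each *Errfi1* start leads to a first exon of its own, and a transcript is listed for each. The listed upstream transcript begins at chr4:150853919, past its RefSeq start (chr4:150853796), and the bases between were not searched. Capitals mark TGACGTCA, the palindromic cAMP response element (CRE), and TATAAA, the TATA box, searched on both strands. The motifs were chosen after these letters and the levels had been seen.
*Areg*, chr5:91139349-91139598, plus strand: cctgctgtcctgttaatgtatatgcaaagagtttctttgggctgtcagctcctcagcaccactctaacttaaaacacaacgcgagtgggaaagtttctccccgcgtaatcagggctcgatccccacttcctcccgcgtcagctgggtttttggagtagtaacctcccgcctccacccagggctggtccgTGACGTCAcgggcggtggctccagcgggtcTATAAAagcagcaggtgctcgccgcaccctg
*Errfi1* downstream start, chr4:150854820-150855069, plus strand: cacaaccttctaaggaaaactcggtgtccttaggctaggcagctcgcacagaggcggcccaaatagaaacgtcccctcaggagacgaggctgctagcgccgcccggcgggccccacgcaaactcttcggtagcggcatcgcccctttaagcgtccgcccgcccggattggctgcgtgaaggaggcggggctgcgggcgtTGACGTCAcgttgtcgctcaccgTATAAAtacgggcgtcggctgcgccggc
*Errfi1* upstream start, chr4:150853546-150853795, plus strand: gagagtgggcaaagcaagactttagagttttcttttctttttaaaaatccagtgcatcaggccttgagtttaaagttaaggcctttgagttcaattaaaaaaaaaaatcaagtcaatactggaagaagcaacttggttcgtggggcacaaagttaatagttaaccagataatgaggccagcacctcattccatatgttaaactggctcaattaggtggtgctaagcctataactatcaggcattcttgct
In *Areg* the CRE began 61 bases and the TATA box 31 bases before the start. In *Errfi1* the downstream start had the same order, at 51 and 28 bases, and the window before the upstream RefSeq start had neither. Among all 32851 promoters of this length, 1.55% held TGACGTCA and 12.4% held TATAAA. None of the other 6 promoters of members held TGACGTCA, and *Epgn* alone among them held TATAAA. The GC box, GGGCGG, was found before *Areg*, *Tgfa*, *Egfr* and the downstream *Errfi1* start, and in 32.7% of all promoters. No member's window held TGANTCA, the AP-1 motif (6.75% of all). The CRE half-site, TGACG, was found before *Epgn*, *Btc* and *Erbb2* as well as *Areg* and the downstream *Errfi1* start (17.8% of all). CATTCC, the TEAD motif, was found before *Erbb2* and the upstream *Errfi1* start (12.6% of all).

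In the water-treated mice the members spanned nearly 3 orders of magnitude. *Areg* (amphiregulin) had a mean of 177 ± 39.6 TPM (SD, n = 9) and *Hbegf* (heparin-binding EGF) 168 ± 39.3, and *Areg* was above *Hbegf* in 7 of 9 mice. Their ranges overlapped, so the order of these neighbours did not hold in every mouse, and in the water controls *Hbegf* had the higher mean (200.2 against 197 TPM), with each gene above in 2 of 4 mice. *Errfi1* followed at 115 ± 21.1 TPM, below *Hbegf* in 9 of 9 mice. Next came *Erbb3* at 32.7 ± 4.31 and *Erbb2* at 15.8 ± 5.47 TPM, with no overlap between them. *Ereg* (epiregulin, 5.75 ± 2.75), *Tgfa* (transforming growth factor alpha, 3.95 ± 0.532), *Egfr* (2.67 ± 0.733) and *Btc* (betacellulin, 1.74 ± 0.575) were lower, and the ranges of each adjacent pair overlapped. *Epgn* (epigen) averaged 0.226 ± 0.234 TPM and was listed at 0 in 3 of 9 mice. *Egfr*, the receptor that all 6 ligands bind, was thus the least abundant of the 3 receptors in every water-treated mouse. Among relatives outside the 10, *Egf*, *Nrg1*, *Nrg3*, *Nrg4* and *Erbb4* had group means below 1 TPM throughout. *Nrg2* had rescaled means of 0.945 and 1.21 TPM in the water groups and 0 and 0.017 after DSS, without overlap, but was below the level at which genes were counted. By contrast, *Lrig1*, encoding a transmembrane inhibitor of the receptors, had rescaled group means of 22.0 to 42.9 TPM. After DSS the order of the means was the same except for *Ereg*, which was below *Erbb2* in 9 of 9 water-treated mice and above it in 3 of 7 DSS-treated mice. *Hbegf* (201 ± 46.6 TPM, n = 7) and *Errfi1* (199 ± 35.7) did not differ beyond their spread after DSS, and nor did *Egfr* (5.55 ± 0.649) and *Btc* (4.70 ± 0.854).

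**Figure D1:**
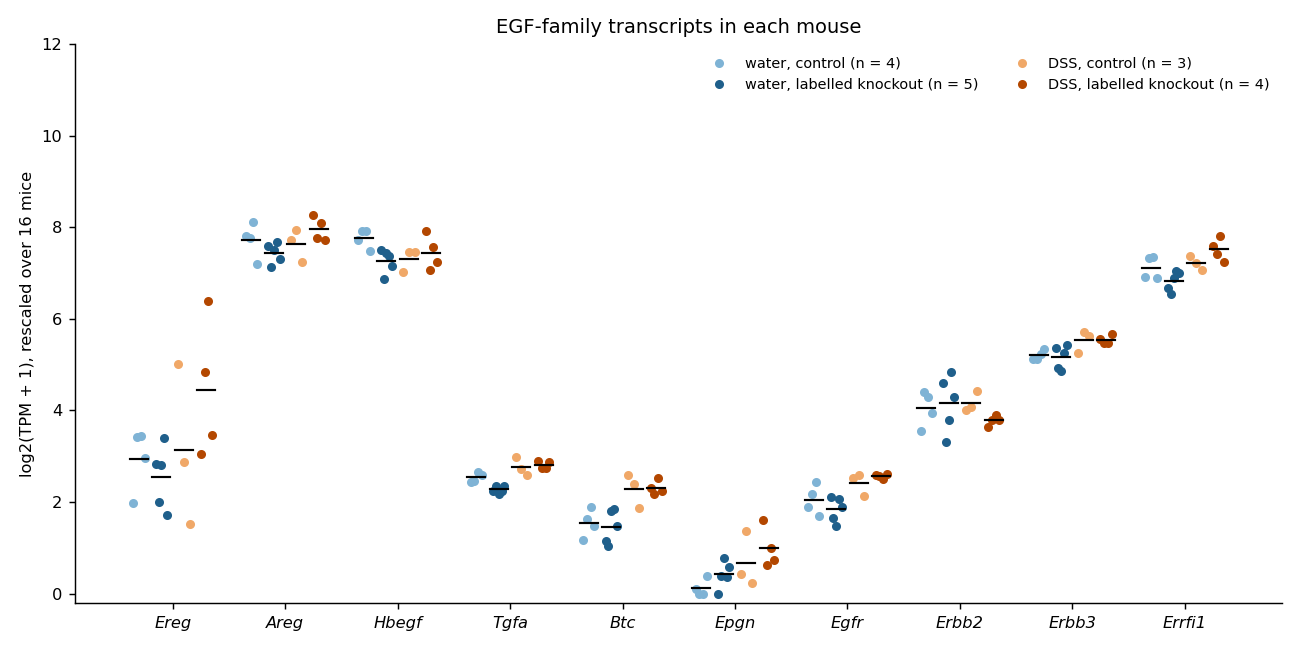
Level of each of the 10 members in each mouse, as log2(TPM + 1) after one rescaling of all 16 mice (vertical axis), by group (colour). Each point is a mouse and the black bar is the group mean. *Areg*, *Hbegf* and *Errfi1* lie highest, *Epgn* lies lowest, and *Ereg* is the member with the widest spread after DSS.

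The ligand pool of a mouse was almost wholly *Areg* and *Hbegf*, and its makeup can be compared between treatments because shares within a mouse do not depend on scaling. In water, *Areg* made up 49.7% ± 3.34 (SD, n = 9) and *Hbegf* 47.0% ± 3.21 of the summed ligand TPM. After DSS the shares were 52.9% ± 4.25 and 39.4% ± 6.60 (n = 7). The share of *Hbegf* was 33.6%, 40.2% and 52.2% in the DSS controls and 42.2%, 34.2%, 34.0% and 39.5% in the mice labelled knockout. In water it ran from 42.8% to 52.7%. With all 7 DSS-treated mice the ranges overlapped. Without DSS control 3, left out after its values were seen, the other 6 mice (33.6% to 42.2%) lay below every water-treated mouse. The ratio of *Areg* to *Hbegf* followed suit, at 1.07 ± 0.137 in water and 1.38 ± 0.262 after DSS. It was 0.861 in DSS control 3 and 1.29 to 1.64 in the other 6 DSS-treated mice, against 0.819 to 1.24 in water. *Btc* took 0.283% to 0.688% of the pool in water and 0.695% to 1.32% after DSS, without overlap in all 16 mice. The margin was narrow, between water knockout 3 (0.688%) and DSS knockout 1 (0.695%). How often the shares of other genes separate the treatments was not computed, and the rescaled TPM of *Btc* overlapped. *Ereg* took 0.659% to 2.49% in water. After DSS its share was 8.22%, 1.44% and 0.553% in the controls and 1.27%, 7.13%, 15.0% and 2.64% in the mice labelled knockout, so that 3 mice were far above the others. Since treatments were in separate tables and cages, these shares are given with no test.

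**Figure D2:**
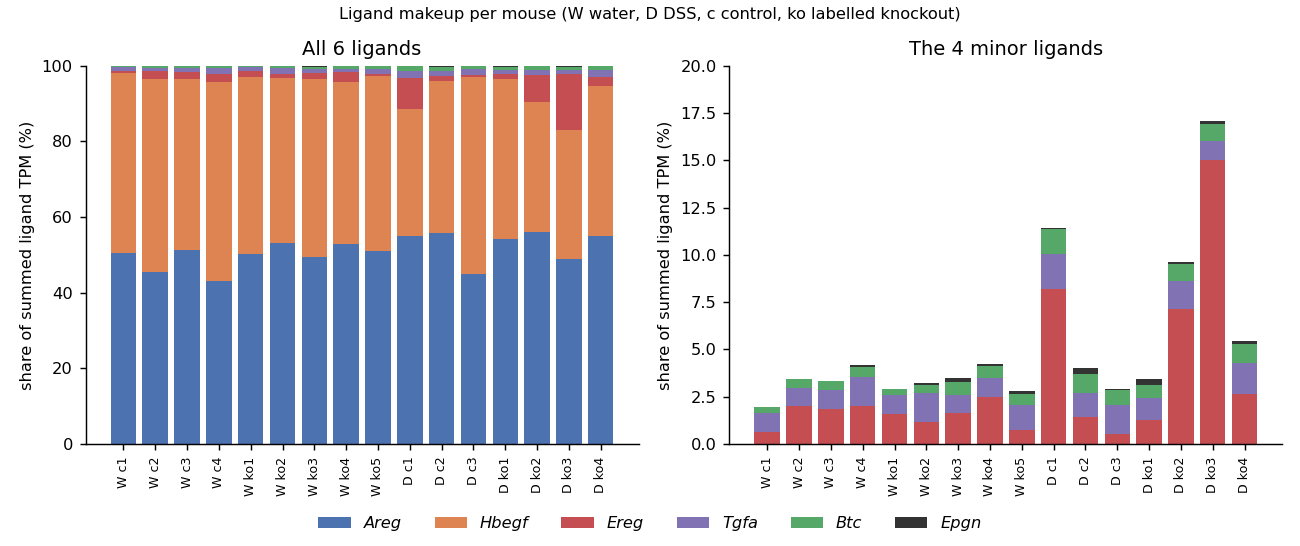
Share of each ligand in the summed TPM of the 6 ligands (vertical axis, percent) in each mouse (horizontal axis), for all ligands on the left and for the 4 minor ligands on an expanded axis on the right. *Areg* and *Hbegf* fill most of each bar, and *Ereg* reaches 15.0% in DSS knockout 3.

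Levels after DSS were set against water after all 16 mice had been rescaled by median-of-ratios factors, which left the median gene with a difference of 0.0055 on the log2(TPM + 1) scale. As deposited, the median of the 11207 genes averaging 1 TPM or more was shifted by 0.31, and by upper-quartile rescaling by 0.21. No test was run between the tables. Of the 9 members averaging 1 TPM or more, none had treatments that did not overlap after rescaling, where 11.5% of all genes had (4.49% higher and 7.04% lower after DSS). By rank within a mouse, *Btc* and *Erbb3* were higher in all DSS-treated mice (2 of 9, against 15.8% of all genes in either direction, 10.0% higher and 5.73% lower). As deposited, *Tgfa*, *Btc*, *Egfr*, *Erbb3* and *Errfi1* did not overlap and were higher after DSS (5 of 9, against 23.1%, 18.9% higher and 4.22% lower), and by upper-quartile rescaling *Tgfa*, *Btc* and *Erbb3* did not (3 of 9, against 17.6%). The median difference of the 9 members was 0.40.

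*Ereg* had the largest mean difference, 1.15 on the log2 scale, with rescaled means of 23.9 TPM after DSS and 6.26 in water, although its ranges overlapped. *Btc* followed with 0.80. Its rescaled TPM were 5.06, 4.25 and 2.69 in the DSS controls and 3.96, 3.54, 4.77 and 3.74 in the mice labelled knockout. In water they were 1.25, 2.10, 2.71 and 1.81 in the controls and 1.22, 1.07, 2.52, 2.61 and 1.77 in those labelled knockout. The treatments thus overlapped only through DSS control 3 and water control 3, and without either mouse they did not. *Tgfa* differed by 0.40 and *Areg* by 0.26, with overlap, and in the controls alone *Areg* differed by −0.08. *Epgn* was at most 2.03 rescaled TPM in any mouse. *Hbegf* was the ligand whose sign depended on the scaling, at −0.09 after rescaling and 0.26 as deposited.

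Among the receptors, *Egfr* differed by 0.57 and *Erbb3* by 0.36. *Egfr* was at 4.79, 5.02 and 3.36 rescaled TPM in the DSS controls and 5.06, 4.95, 4.65 and 5.16 in the mice labelled knockout, against 1.80 to 4.43 in water. Control 3 was again the mouse inside the water range. *Erbb2* differed by −0.16 after rescaling and by 0.17 as deposited. The ratio of *Erbb2* to *Egfr* within a mouse, which is free of scaling, was 6.01 ± 1.63 in water and 3.25 ± 1.29 after DSS. It was 6.07 in DSS control 3 and 2.28 to 3.17 in the other 6 DSS-treated mice, below the 3.89 to 8.67 of water. *Errfi1* differed by 0.43, with overlap. Leaving out DSS control 3 put *Tgfa*, *Btc* and *Egfr* outside the water range (3 of 9, against 24.2% of all genes). With that mouse kept, the share over all genes was 11.5%. In the controls alone, *Hbegf* was lower in all 3 DSS-treated mice (1 of 9, against 24.6%). In the mice labelled knockout alone, *Areg*, *Tgfa*, *Btc*, *Egfr*, *Erbb3* and *Errfi1* were higher in all 4 (6 of 9, against 35.3%). In females alone *Btc* was higher (1 of 9, against 17.8%). The part of the macrophage, B cell, neutrophil and fibroblast RNA in these differences was not tested.

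*Errfi1* was the only member listed with more than 1 transcript. ENSMUST00000073600.8 begins at chr4:150853919 (GENCODE M21) and ENSMUST00000030811.1 at chr4:150855073, and they share the later exons. Of the 31-base words that kallisto matches, 6.35% and 6.57% were absent from the other listed transcript, so the division between them rests on a small part of each. A further annotated transcript, ENSMUST00000128640.7, is not listed and has the same first exon as the downstream one. With it, 29 of 3013 words of the downstream transcript were in no other transcript of the gene, against 191 of 3006 of the upstream one. The downstream transcript made up 26.0% to 66.0% of *Errfi1* TPM in water (median 36.6%) and 41.2% to 80.7% after DSS (median 50.4%), with overlap. After DSS the upstream transcript was at 86.9, 95.0 and 32.1 TPM in the controls and at 108, 120, 130 and 95.7 in the mice labelled knockout. The groups did not overlap, by less than 1 TPM, as was the case for 4.00% of 12547 listed transcripts averaging 1 TPM or more. The exact two-sided permutation p was 0.0286, the smallest possible with 3 against 4 mice. This feature was picked after its values were seen, and the lowest value was again that of control 3. In water it was at 36.7 to 108 TPM in controls and 38.9 to 74.7 in those labelled knockout (exact permutation p = 0.619). The downstream transcript did not separate genotypes after DSS (exact permutation p = 0.943).

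**Figure D3:**
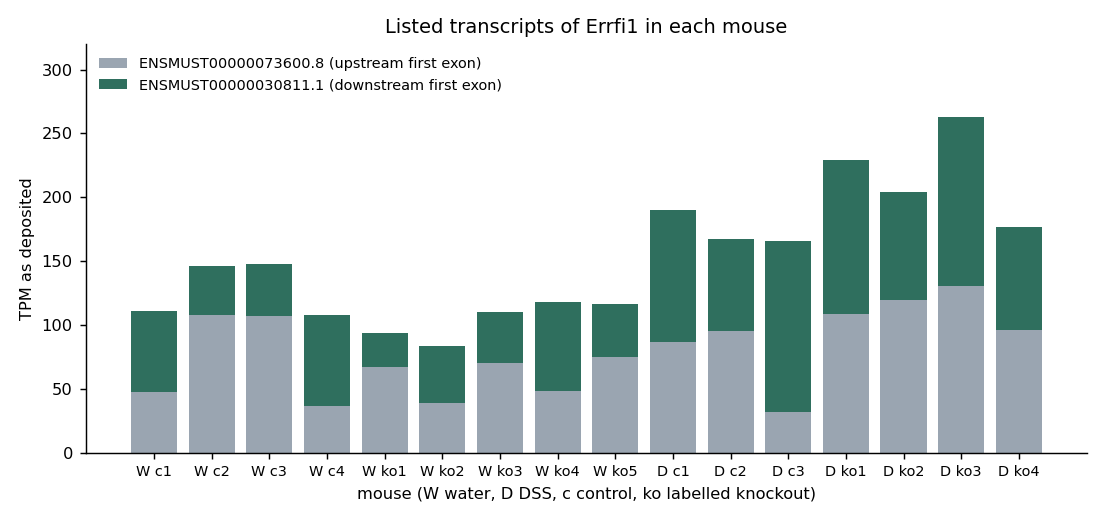
Deposited TPM of the listed *Errfi1* transcripts (vertical axis) stacked in each mouse (horizontal axis), with the transcript from the upstream first exon in grey and that from the downstream first exon in green. The green part is 26.0% to 66.0% of a bar in water and 41.2% to 80.7% after DSS.

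Genotype was then compared within each treatment, where the mice share a table. The question was whether loss of epithelial TNFR2 changed the family's transcripts at rest or in repair. No member was called by limma at an adjusted p under 0.05, adjusted over all genes, where 0.00918% of 10899 genes were called after DSS and 0.00905% of 11046 in water. At an unadjusted p under 0.05, 0 of 10 members passed after DSS (2.65% of genes) and 1 of 9 in water (5.28%). By ranges, 1 of 10 members did not overlap after DSS (3.68% of genes, 2.13% higher and 1.55% lower in mice labelled knockout) and 1 of 9 in water (1.55%, 0.670% higher and 0.878% lower).

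After DSS, *Erbb2* was the member without overlap. It was at 17.5, 17.8 and 25.3 TPM in the controls and at 13.7, 15.4, 16.6 and 15.2 in the mice labelled knockout, so that each of the latter was lower. The difference was −0.37 ± 0.16 on the log2 scale (SE; limma adjusted p = 1.00, exact permutation p = 0.0286). Without control 3 it was −0.21. It was −0.84 within cage c, which holds only control 3 and knockout 1, and −0.16 within cage d. *Ereg* had a larger difference with a much larger error. It was at 36.3, 7.17 and 2.30 TPM in the controls and at 8.63, 33.1, 97.8 and 11.8 in those labelled knockout, a difference of 1.34 ± 1.01 (adjusted p = 1.00 by limma, exact permutation p = 0.343). It was 0.54 without control 3, 0.69 without knockout 3 and 2.29 without control 1. *Areg* was at 243, 277 and 187 TPM in the controls and at 368, 260, 319 and 246 in the mice labelled knockout. Its difference of 0.34 ± 0.19 was not past the threshold (adjusted p = 1.00 by limma, exact permutation p = 0.229). It was 0.18 without control 3, 0.97 within cage c (control 3 against knockout 1 alone) and 0.08 within cage d. For *Errfi1* the difference was 0.31 ± 0.15, with means of 174 ± 13.4 (n = 3) and 218 ± 36.5 TPM (n = 4). The other 6 members differed by 0.03 to 0.36, and the exact permutation p of each was at least 0.114. Without control 3, *Egfr* went from 0.17 to 0.05, *Epgn* from 0.36 to 0.13 and *Tgfa* from 0.07 to 0.01.

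In the water-treated mice, *Tgfa* did not overlap. It was at 4.13, 4.13, 4.87 and 4.60 TPM in the controls and at 3.51, 3.77, 3.33, 3.41 and 3.77 in those labelled knockout. The difference was −0.25 ± 0.12 (limma adjusted p = 0.865), and the exact permutation p of 0.00794 is the smallest possible with 4 against 5 mice. It was −0.24 within cage a and −0.25 within cage b. *Hbegf* was at 197, 222, 221 and 162 TPM in the controls and at 168, 105, 162, 149 and 130 in the mice labelled knockout. All but control 4 were above every mouse labelled knockout. The difference was −0.49 ± 0.16 (limma p = 0.0124, adjusted p = 0.865, exact permutation p = 0.0397), with −0.65 in cage a and −0.37 in cage b. *Errfi1* differed by −0.29 ± 0.15, *Areg* by −0.27 ± 0.19 and *Ereg* by −0.38 ± 0.40, none past the threshold. Leaving out 1 mouse gave −0.14 (without control 3) to −0.45 (without control 4) for *Areg* and −0.18 (without knockout 5) to −0.70 (without control 1) for *Ereg*. These were 20 exact tests of 10 members in 2 treatments, with no adjustment among them, since the members had been chosen with results known.

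Read together, the signs of the members differed between the treatments. After DSS 9 of 10 members had a positive difference (knockout minus control, median 0.16), while in water 8 of 9 had a negative one (median −0.25). Over all genes tested, 5756 of 10899 differences were positive after DSS (median 0.015) and 5542 of 11046 in water (median 0.0015). Members vary together within a mouse and are not replicates, so the counts are descriptions. Without DSS control 3, *Btc* was also negative after DSS, and 8 of 10 were positive. Within cage d, 6 of 10 were positive. The fibroblast markers had the same signs, positive for 10 of 10 after DSS (median 0.26) and negative for 9 of 10 in water (median −0.55), none called. These fibroblast signs were not computed without control 3 or within cage d. The turn was not particular to fibroblast markers. The ERK targets and feedback genes below were positive for 17 of 19 after DSS and negative for 18 of 20 in water. The medians of the other pathway lists also turned from positive to negative. B and plasma cell markers were positive for 4 of 4 after DSS and 6 of 7 in water. Macrophage markers were negative for 8 of 8 and 10 of 10. Epithelial, neutrophil, smooth muscle and endothelial markers had both signs in each treatment. The part of the fibroblast markers in the signs of the members was not tested. The difference between treatments was not tested either, because the tables were normalized separately.

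**Figure D4:**
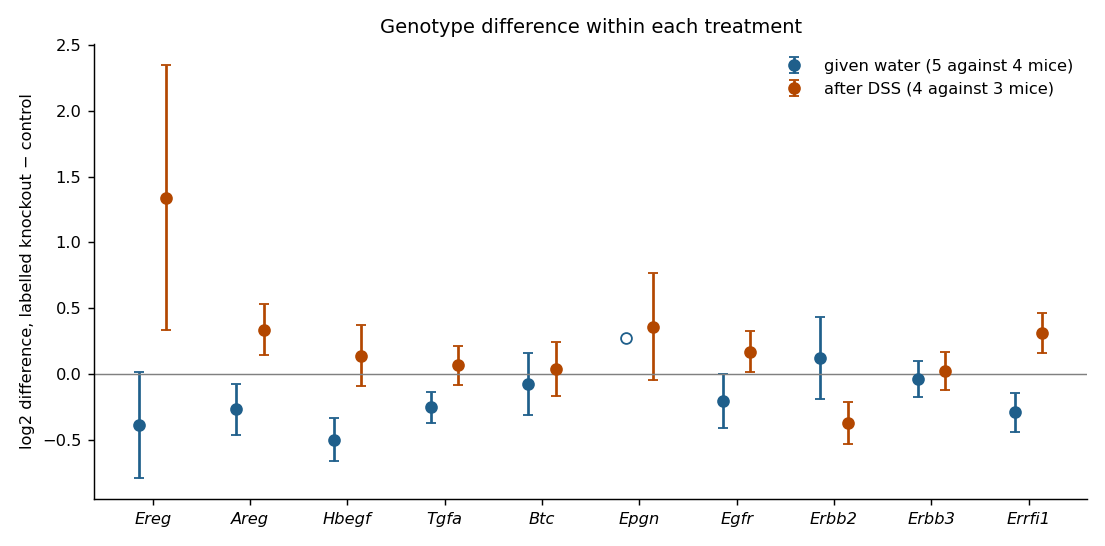
Difference in mean log2(TPM + 1) between mice labelled knockout and controls (vertical axis) for each member, in water (blue) and after DSS (orange). Bars are standard errors from limma, and the open circle is *Epgn* in water, which was below the level tested. The blue points of 8 of the 9 tested members lie below 0, and the orange points of 9 of 10 lie above it.

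Sex and cage were the same split in the water-treated mice. No member was called between cage b (females) and cage a (males) by limma, where 0.0362% of genes were, and none had cages that did not overlap (1.79% of genes). *Btc* had the largest difference, 0.33 ± 0.22 (adjusted p = 0.812). At an unadjusted p under 0.05, 0 of 9 members passed (6.83% of genes).

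The rest of the pathway was read from 6 lists, and limma called none of their genes between genotypes in either treatment. Of the 22 targets and feedback genes of ERK signalling, 19 were tested after DSS and 17 of them had a positive difference (median 0.29). In water 20 were tested and 18 had a negative one (median −0.24). At an unadjusted p under 0.05, 1 of the 19 passed after DSS (2.65% of all genes) and 1 of the 20 in water (5.28%), both named after their values were seen. *Spry1*, an inhibitor of RAS-ERK signalling, differed by 0.47 ± 0.16 after DSS (limma adjusted p = 1.00). *Fosl1*, an AP-1 subunit, differed by −0.79 ± 0.27 in water (limma adjusted p = 0.865). In the other lists *Pik3r1* (−0.28, lower) and *Epn1* (0.34, higher) also had such a p in water, with adjusted p = 0.865 by limma. The lists of 19 adaptor and RAS-ERK genes, 13 endocytosis and ubiquitin genes, 9 PI3K-AKT genes, 7 shedding genes and 9 relatives had medians between 0.03 and 0.29 after DSS and between −0.25 and −0.04 in water.

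Between treatments, after rescaling, 11.5% of all genes had no overlap (4.49% higher and 7.04% lower), and the share in the lists was near this. Of the 19 tested ERK target and feedback genes, 2 were lower in every DSS-treated mouse and none was higher, with a median of −0.14. They were *Dusp5* and *Dusp1*, phosphatases of the ERK and other MAP kinase pathways. *Dusp5* was at 23.6 to 37.2 rescaled TPM after DSS and 58.6 to 94.3 in water (−1.36), and *Dusp1* at 104 to 171 and 186 to 374 (−1.20). By rank the direction was mixed, with *Phlda1* and *Ccnd1* higher and *Dusp5* lower in every DSS-treated mouse, while *Dusp1* overlapped. Among the adaptors, *Grb2*, which links the receptors to RAS, was lower (−0.49, overlapping by rank) and *Nf1*, a RAS GTPase-activating protein, was higher (0.63). By rank *Sos1* and *Braf* were higher as well, which made 3 of 19. The shares over all genes by rank were 10.0% higher and 5.73% lower. *Pdpk1*, the kinase upstream of AKT, was higher (0.54), as was *Socs4* (0.91), a suppressor of cytokine signalling. *Frmd8*, a partner of the iRhom proteins that carry ADAM17, was lower (−0.57, overlapping by rank). On the rescaled levels these are 2 of 19, 1 of 8, 1 of 13 and 1 of 7 genes of their lists, and the 3 relatives averaging 1 TPM or more all overlapped.

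*Ereg* was the member with the widest range between mice. Its highest level was 42.5 times its lowest over the 7 DSS-treated mice and 4.33 times over the 9 water-treated mice, while no other member averaging 1 TPM or more in both tables passed 3.02 times in either. DSS control 1, knockout 2 and knockout 3 were high (36.3, 33.1 and 97.8 TPM), and the other 4 DSS-treated mice were at 2.30 to 11.8. The 3 high mice were all in cage d and came from both genotypes. Genes most like *Ereg* over the 16 mice, after centring each group on log2(TPM + 1), included *Gja1* (Pearson r = 0.94, Spearman's rho = 0.95) and *Ptgs2* (r = 0.94, rho = 0.94). *Gja1* encodes a gap junction protein and *Ptgs2* the inducible enzyme of prostaglandin synthesis. They were picked from 10159 genes as the highest values, so they carry no p. Leaving out the 2 mice farthest from the median gave r of 0.90 and 0.89, and leaving out DSS control 3 gave 0.92 for both. *Ptgs2* was at 59.4, 31.9 and 56.9 TPM in the 3 mice with high *Ereg* and at 2.98 to 9.57 in the other 4. *Gja1* was at 24.9, 24.7 and 38.3 TPM in those 3 mice and at 6.51 to 13.1 in the others.

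Marker RNA of other cell types was set against each member within each treatment, and no relation passed adjustment. In water the mean log2 level of the 10 markers (*Col1a1*, *Col3a1*, *Dcn*, *Pdgfra* and others) had r = 0.86 and rho = 0.88 with *Ereg* (n = 9, exact permutation p = 0.00248 and 0.00308). After DSS r was 0.83 and rho 0.71 (n = 7, exact permutation p = 0.0300 and 0.0881). *Ereg* after DSS had higher r with the markers of T and innate lymphoid cells (r = 0.88, rho = 0.89, exact permutation p = 0.00714 and 0.0123) and of B and plasma cells (r = 0.85, rho = 0.86, exact permutation p = 0.0123 and 0.0238). Leaving out the 2 mice farthest from the median of those markers gave r of 0.49 and 0.61. The T and innate lymphoid cell markers were near the floor after DSS. Their sums were 0.271 to 4.76 TPM, and none averaged 1 TPM. Smooth muscle markers had r = 0.77 and rho = 0.68 with *Ereg* after DSS (exact permutation p = 0.0498 and 0.110). Without the 2 farthest mice that r was 0.46. In water the fibroblast markers also had r of 0.80 with *Errfi1*, 0.77 with *Hbegf* and 0.73 with *Btc*. Leaving out the 2 mice farthest from the median of the fibroblast markers gave 0.52, 0.38 and 0.62. Other lists had r of similar size in the water-treated mice. Endothelial markers had 0.80 with *Errfi1* and 0.78 with *Btc*. B and plasma cell markers had −0.77 with *Egfr*, −0.74 with *Errfi1*, −0.73 with *Areg* and −0.71 with *Hbegf*. These belong to 162 relations of 9 members with 9 marker lists in 2 treatments, of which 25 had a permutation p of Pearson's r under 0.05 and none an adjusted one. After Benjamini-Hochberg adjustment the permutation p of *Ereg* with fibroblast markers were 0.231 in water and 0.281 after DSS. For *Ereg* with the fibroblast markers, leaving out the 2 farthest mice gave r of 0.88 in water and 0.61 after DSS. Leaving out DSS control 3 gave 0.94 after DSS. The 3 DSS-treated mice with high *Ereg* had fibroblast marker sums of 436, 495 and 568 TPM. The other DSS-treated mice were at 119 to 199 TPM, without overlap. In water the sums were 239 to 827 TPM, in a table scaled on its own. The same 3 mice, picked by their *Ereg*, also stood above the other DSS-treated mice in other lists. Smooth muscle sums were 36.4 to 42.5 against 13.7 to 23.2 TPM, and endothelial sums 24.2 to 25.9 against 9.42 to 19.7. B and plasma cell sums were 69.0 to 465 against 8.44 to 51.9 TPM. The split was thus not particular to fibroblast markers. The part of other cells in the level of *Ereg* was not tested.

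**Figure D5:**
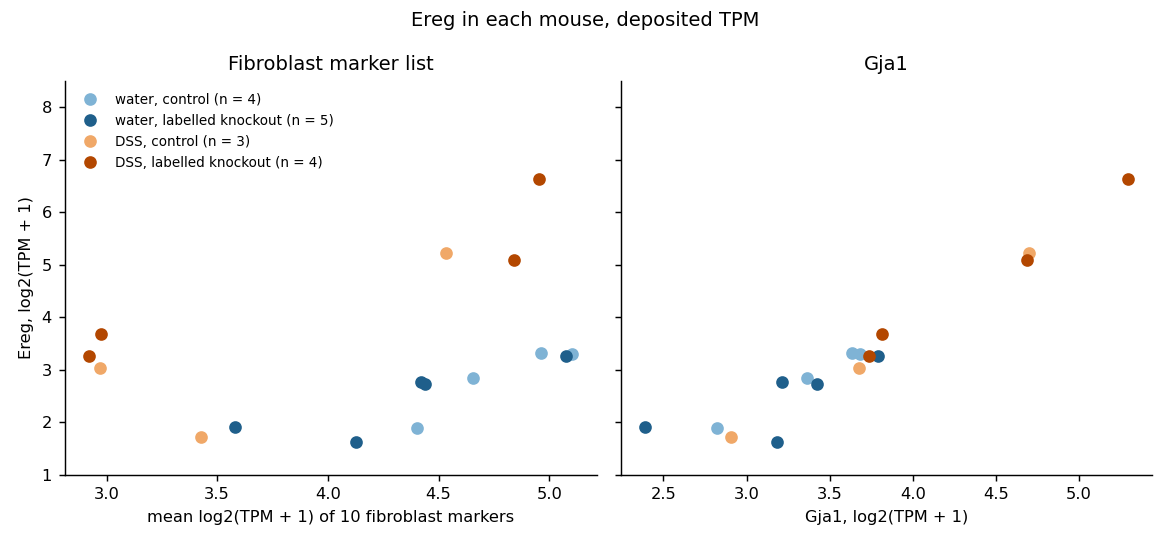
*Ereg* in each mouse, as log2(TPM + 1) of the deposited values (vertical axis), against the mean log2(TPM + 1) of 10 fibroblast markers (left) and against log2(TPM + 1) of *Gja1* (right). Points are mice, coloured by group. The 3 DSS-treated mice with the highest *Ereg* (33.1 to 97.8 TPM) are also those with the most *Gja1*.

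Other members kept different company. *Hbegf* was most like *Actg1*, *Gmeb2* and *Dusp5* (r = 0.87, 0.87 and 0.86 over the 16 mice) and *Areg* most like *Phlda1*, *Ly6c1* and *Ypel5* (0.87, 0.86 and 0.86). Here too the 3 nearest were picked from 10159 genes as the highest values. *Dusp5* and *Phlda1* are in the ERK list, and no other member compared, *Errfi1* included, had a gene of that list among its 3 nearest. *Btc* was most like *Fam126a*, *Rap1b* and *Nfe2l2* (0.91, 0.89 and 0.86), *Tgfa* like *Anks4b*, *Eif5b* and *Anxa8* (0.83, 0.83 and 0.77), and *Errfi1* like *Pptc7*, *Ctsl* and *Wsb1* (0.88, 0.86 and 0.85). Among the receptors, *Egfr* was most like *Dsg2*, *Fgd6* and *Tac1* (0.87, 0.86 and 0.85), *Erbb2* like *Gabarapl1*, *Letmd1* and *Vasn* (0.89, 0.87 and 0.85), and *Erbb3* like *Clcn7*, *Ppt2* and *Naa80* (0.88, 0.88 and 0.85). Between members, the closest pair was *Btc* and *Errfi1* (r = 0.77, rho = 0.79), with 0.64 after DSS and 0.83 in water. *Areg* and *Hbegf* had r = 0.66 (rho = 0.55), with 0.47 after DSS and 0.85 in water, and 0.95 after DSS without control 3. *Egfr* and *Erbb2* went opposite ways in the treatments, with r = 0.74 in water (n = 9) and −0.96 after DSS (n = 7), or −0.74 without control 3. All of these correlations are descriptions over mice that share a table and its scaling, and carry no p.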

How the data were processed

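RNA of EpCAM+ cells from 16 mice was sequenced from stranded polyA libraries of single 75-base reads. The authors quantified it with kallisto (mm10 in the submitters' processing notes) and deposited TPM of principal transcripts in 2 tables, for water and DSS, each scaled on its own (median-of-ratios factors over all mice were 0.905 to 0.940 in water and 1.13 to 1.24 after DSS). The same tables hold the authors' sleuth statistics, p-values, q-values and log2 ratios between genotypes, which were not used. Transcripts were summed by symbol. Repeated identical lines (385 of 29373) were dropped. Read depth is not in TPM, so no counting interval was given. Every mouse was placed by its GEO labels, and p-values measure the spread between mice.

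Within each table genotype was tested with limma 3.58.1 (R 4.3.3, trend and moderated variance) on log2(TPM + 1), on genes averaging 1 TPM or more, and p-values were adjusted over all of these by Benjamini and Hochberg's method. Single genes were also tested by exact two-sided permutation. The fit was tested on simulated data. Between tables, all mice were rescaled by median-of-ratios factors and described without a test. A fold on the log2(TPM + 1) scale understates changes of low genes. Tables and figures used Python 3.11.15 with pandas 2.3.3, numpy 2.4.6 and matplotlib 3.10.9.

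All 10 members are named, as are genes of the other lists called by limma, or the 3 of each list with the largest DSS difference among those without overlap, and the 3 genes most like each member, of which 1 is not reported here. The members and lists were chosen with earlier results of these data known. Epithelial, B and plasma cell, T and innate lymphoid cell, macrophage, neutrophil, mast cell, fibroblast, smooth muscle and endothelial markers were summed. The mast cell, smooth muscle and endothelial sums were at most 57.4 TPM in any mouse. Promoter sequences are from RefSeq. Alternatives were another pseudocount, other minimum levels, other scalings, cage terms, subsets of mice, a replicate block and leaving out each mouse.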

Additional observations from a re-analysis of the deposited data

How the results depend on the processing

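No member was called between genotypes or cages under any alternative that gave a test. Over all genes, 1 was called after DSS, against 0 with a pseudocount of 0.1, 0 with all genes above 0 and 0 to 3 when each mouse was left out. In water 1 was called, against 0 with a pseudocount of 0.1, 4 with all genes above 0, 0 with a mean of at least 5 TPM and 1 to 2 when each mouse was left out. Between cages the count of 4 became 3 to 7. The replicate block left 0 genes called in both treatments. Same-numbered mice did not deviate together (r = −0.20 to 0.09), so the numbers name mice and the pairing is not given by the labels. Between DSS and water, members without overlap numbered 0, against 5 as deposited, 2 by rank, 3 by upper-quartile rescaling, 1 in controls alone, 6 in mice labelled knockout alone, 1 in females alone and 0 to 3 when each mouse was left out.

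Signs of members that were not called turned in some settings. After DSS, cage d alone gave −0.020 for *Tgfa*, −0.14 for *Btc* and −0.094 for *Epgn*. *Erbb3* was −0.13 in cage c alone (control 3 against knockout 1) and −0.011 with the replicate block. In water, cage b alone gave 0.032 for *Areg* and 0.15 for *Btc*. Between cages *Hbegf* was −0.037 without the genotype covariate. Leaving out each mouse gave, after DSS, −0.020 to 0.26 for *Hbegf*, −0.14 to 0.19 for *Btc* and −0.12 to 0.11 for *Erbb3*. In water it gave −0.19 to 0.035 for *Btc*, −0.036 to 0.34 for *Erbb2* and −0.10 to 0.033 for *Erbb3*. Between cages it gave −0.34 to 0.0021 for *Areg*, −0.16 to 0.12 for *Hbegf*, −6.65e-05 to 0.56 for *Erbb2* and −0.060 to 0.14 for *Erbb3*. The cause was not tested. Groups of 3 to 5 mice and TPM without depth limit the precision.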
